A study of Mus musculus with 3 samples.

Results

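The explant photoreceptor precursors were the 1662 cells that the deposited annotation of the explant library names photoreceptors, of 5607 cells in that library and 14611 cells in all 3 libraries of the series. Single-cell transcriptomes were measured by MULTI-seq, in which lipid-anchored barcodes mark the cells of each sample before they are pooled into a shared droplet library. The explants were wild-type CD1 retinas taken at embryonic day 14 and cultured flat on membranes for 6 days with 0, 5, 50 or 500 nM of a small-molecule agonist of the somatostatin receptor Sstr2, to an age labelled as equivalent to birth. Each dose had 2 multiplexed samples, called replicates 1 and 2 here. How many retinas went into a sample was not given in the sources used here, so the p-values measure the spread between these samples. The other libraries held retinas of postnatal day 0 (P0) and postnatal day 14 (P14) from littermates of mixed C57BL/6 and CD1 background that were Sstr2 +/+, Sstr2 +/- or Sstr2 -/-, the last carrying a targeted deletion in every cell of the animal. Of the 5 P0 retinas used for comparison, 1 was a control, 2 were heterozygous and 2 were knockouts.

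Photoreceptor precursors are postmitotic cells that leave neurogenic progenitors with Otx2 switched on. Otx2 activates Crx, both homeodomain factors bind the promoters of photoreceptor genes, and Prdm1 keeps the cells from becoming bipolar cells. The rod factor Nrl and its target Nr2e3 then set the rod program and repress cone genes, while Thrb and Rxrg mark the cone program. In the mouse, cones are born before birth and most rods around and after it. Somatostatin, the ligand of Sstr2, is made by young ganglion cells, and Sstr2 is found mainly on neurogenic progenitors.

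The summed unique molecular identifiers (UMIs, 1 for each captured transcript end) of the precursors came to 4961550. At 0 nM, replicate 1 gave 403 cells and 1136058 UMIs, and replicate 2 gave 165 cells and 478833 UMIs. At 5 nM there were 106 cells with 319549 UMIs and 229 cells with 713955 UMIs. At 50 nM there were 126 cells with 380377 UMIs and 251 cells with 761145 UMIs, and at 500 nM 221 cells with 668481 UMIs and 161 cells with 503152 UMIs. Median UMIs per cell were 2507 and 2478 at 0 nM, the 2 lowest of the 8 explants, and between 2690 and 2807 in the 6 explants given agonist. The part of this depth in the dose results was not tested. Levels are given below as CPM, the count of a gene per 1000000 UMIs of the summed precursors of an explant, and levels by dose name replicate 1 first. Because each transcript is counted once at its end, CPM of different genes can be set side by side without a length correction.

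The explants differed in the sex of their animals, which the labels do not give. At least 1 UMI of Xist, the RNA of the inactive X chromosome, was found in 58.8% and 61.8% of precursors at 0 nM, 99.1% and 61.6% at 5 nM, 56.3% and 61.0% at 50 nM, and 100% and 100% at 500 nM. Cells with a UMI of a Y-linked gene made up 26.1% and 19.4% at 0 nM, 0% and 24.5% at 5 nM, 23.8% and 31.1% at 50 nM, and 2.26% and 2.48% at 500 nM. Replicate 1 at 5 nM and both replicates at 500 nM therefore stood apart from the other 5 explants. Those 5 held cells of both kinds, so a sample may hold several animals, and n counts samples, not animals. Each test of genes over dose was also computed on Xist-positive cells alone, a set from which cells with a UMI of a Y-linked gene were left out.

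The letters TAATCC, the core that Otx2 and Crx recognise, were searched on both strands in the 250 bases before the RefSeq gene start (build GRCm38.p6). They were present in 16 of 48 promoters (33.3%) of the rod, cone and shared phototransduction lists described below, of whose 63 genes 48 had an entry, against 1949 of 27025 promoters of all genes (7.21%). By list, 10 of 24 shared genes (41.7%), 4 of 12 rod genes and 2 of 12 cone genes held the motif. The last 100 bases before the RefSeq start are shown for 6 genes named in the results below. All 6 come from the 16 with the motif, so they do not stand for the other genes of the lists. The bases run 5′ to 3′ on the strand of the gene, with the motif in capitals. The motif reads GGATTA in all 6, which is TAATCC on the opposite strand. The positions are chr7:15879956-15880055 (minus strand) for Crx, chr17:47400607-47400706 (minus) for Guca1a, chr3:108092966-108093065 (plus) for Gnat2, chr6:3993908-3994007 (plus) for Gngt1, chr1:87803580-87803679 (plus) for Sag and chr3:122044360-122044459 (plus) for Abca4.
Crx: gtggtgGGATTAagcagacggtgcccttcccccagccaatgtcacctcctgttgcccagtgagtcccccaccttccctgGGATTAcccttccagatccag
Guca1a: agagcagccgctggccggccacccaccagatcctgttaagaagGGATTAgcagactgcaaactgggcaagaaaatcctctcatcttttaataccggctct
Gnat2: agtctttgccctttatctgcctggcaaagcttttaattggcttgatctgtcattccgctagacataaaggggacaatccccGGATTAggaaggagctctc
Gngt1: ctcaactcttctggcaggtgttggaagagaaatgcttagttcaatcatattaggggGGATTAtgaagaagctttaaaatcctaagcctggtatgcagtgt
Sag: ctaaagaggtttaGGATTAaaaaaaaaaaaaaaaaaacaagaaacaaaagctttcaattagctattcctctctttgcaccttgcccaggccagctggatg
Abca4: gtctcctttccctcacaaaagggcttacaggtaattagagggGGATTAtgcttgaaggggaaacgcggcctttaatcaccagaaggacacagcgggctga
Crx, itself a target of Otx2, held 2 copies, whose first bases lay 94 and 21 bases before the start. The distance was 57 bases for Guca1a, 19 for Gnat2, 44 for Gngt1, 87 for Sag and 58 for Abca4. The gene spans printed below come from the GENCODE annotation, whose spans begin further upstream for Gnat2 and Gngt1, so that these stretches lie inside them, and overlap part of the stretch of Crx. A match of letters is a description of the sequence, and binding was not measured.

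The markers of photoreceptor precursors were at their highest in the annotated cells. Otx2 (chr14:48657677-48673819, mm10) was 1459 ± 163 CPM (SD, n = 8 explants, from 1240.2 to 1673), against means of 87.8 CPM in primary progenitors, 701 in neurogenic progenitors, 41.4 in amacrine cells and 31.4 in ganglion cells of the same explants. Crx (chr7:15865947-15879968) was 459 ± 35.8 CPM, against 111 CPM in neurogenic progenitors and 19.6 in primary progenitors. Both factors were thus already present in the neurogenic progenitors, at a lower level. The same held for Prdm1, with 315 ± 41.3 CPM in the precursors and 125 in neurogenic progenitors, and for the proneural factor Neurod1, with 1986 ± 88.3 CPM and 731. Neurod4, a related proneural factor, was 664 CPM in the precursors and 535 CPM in neurogenic progenitors.

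The remaining markers were found almost only in the precursors. Rcvrn, the calcium sensor recoverin, was 144 ± 54.3 CPM and ranged from 50.4 to 219 CPM between explants, with 2.01 CPM in neurogenic progenitors and 5.23 CPM in ganglion cells. Thrb, the thyroid hormone receptor of cones, was 157 ± 35.9 CPM against 5.90 CPM in neurogenic progenitors. Because the annotation was made from the same transcripts, these levels check the name of the cells and carry no test. Summed over the 6 markers, the precursors had 4520.0 CPM (4231 to 4935 over the explants), neurogenic progenitors 1676, ganglion cells 343, amacrine cells 217 and primary progenitors 215.

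**Figure D1:**
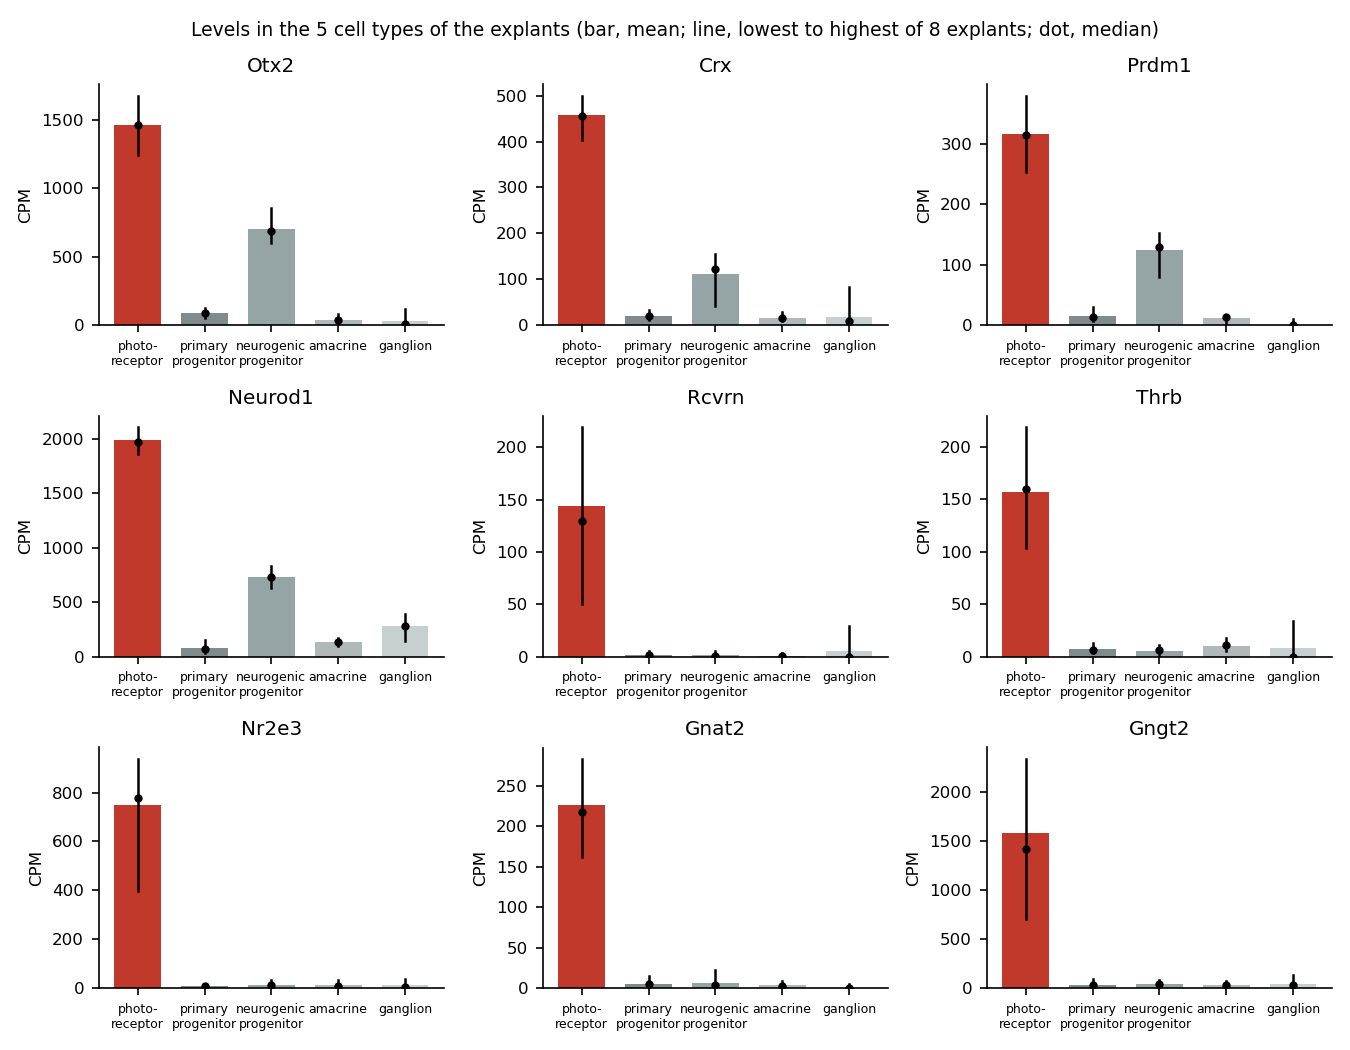
Level of 9 marker genes in the annotated cell types of the explant library, in CPM; each bar is the mean of 8 explants, each line runs from the lowest to the highest explant and each dot is the median. Otx2, Crx, Prdm1 and Neurod1 have a smaller bar in neurogenic progenitors (701 CPM for Otx2), while Rcvrn, Thrb, Nr2e3, Gnat2 and Gngt2 stand near 0 in all other types.

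Genes of the rod program differed widely in level, among the transcription factors as among the effectors. Nr2e3, the rod nuclear receptor, was 750.4 ± 155 CPM and Nrl 290.0 ± 40.9 CPM, against 12.4 and 8.46 CPM in neurogenic progenitors. Samd7, a silencing factor of rods, was 102 CPM. Of the rod effectors, Gngt1 (the gamma subunit of rod transducin) was 509.6 ± 83.3 CPM and Pde6g (the inhibitory subunit of the rod phosphodiesterase) was 445 CPM. Pde6b (the beta subunit of the same phosphodiesterase) reached 12.6 CPM, and Gnat1, the alpha subunit of rod transducin, 0.962 CPM from 5 UMIs. Esrrb, a nuclear receptor of later rods, had no UMI in the precursors. The 17 rod genes summed to 2336 CPM (1979.6 to 2713), with 193 to 344 CPM as the range of rod and cone sums in the other types.

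The 3 cone transducin genes were each higher than their rod counterparts. Gngt2, the cone transducin gamma subunit, was 1581 ± 582 CPM, Gnb3, the cone beta subunit, 1177 ± 94.6 CPM, and Gnat2, the cone alpha subunit (chr3:108092789-108101432), 226 ± 39.2 CPM. Opn1sw, the short-wavelength cone opsin, was 414 ± 151 CPM with a range of 240.5 to 666 CPM over the explants. The cone channel gene Cngb3 was 210.4 CPM and the cone phosphodiesterase gene Pde6c 38.0 CPM. Arr3, cone arrestin, was 6.63 CPM, and Pde6h, the inhibitory subunit of the cone phosphodiesterase, 1.04 CPM from 5 UMIs. The 16 cone genes in the table (Opn1mw was not among the genes of the table) summed to 4750.1 CPM, from 3562 to 5898 CPM over the explants.

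Genes shared by rods and cones made up the largest of these sums, 12078 CPM (10913 to 13302) over 29 genes, against 2099 CPM in neurogenic progenitors and 571 CPM or less in the other types. Beside the transcription factors given above, the highest were Pdc (phosducin, which binds transducin) at 2123 CPM, Unc119 (a lipid-binding carrier of transducin) at 1435 CPM and Sag (rod arrestin, found in both) at 1027 CPM. Of genes known from outer segments and the cilium that carries them, Tulp1 was at 716 CPM, Rom1 at 670.1, Rp1 at 425 and Prph2 at 225 CPM. Of the ribbon synapse list, Snap25 (vesicle fusion) was 572 CPM, Cplx3 (the complexin of ribbon synapses) 448 CPM and Slc17a7 (the vesicular glutamate transporter) 120.4 CPM. Ldha, the lactate dehydrogenase of aerobic glycolysis, was 2072 CPM against 352 CPM in primary progenitors and 84.6 CPM in ganglion cells. It did not stand for its list. The 22 glycolysis genes, Ldha included, summed to 6039 CPM in the precursors and 5400 CPM in primary progenitors. For 3 of the 22, every explant was higher in the precursors than any explant in the other types.

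Sstr2, the target of the agonist, had 38 UMIs in all precursors together, 8.13 CPM, against 113 CPM in neurogenic progenitors. Sst had 2 UMIs. Markers of other cell types were summed in the precursors of each explant. The 11 primary progenitor genes summed to 507 and 445 at 0 nM, 460.0 and 632 at 5 nM, 421 and 476 at 50 nM, and 510.1 and 847 CPM at 500 nM, against 7128 CPM in the progenitors themselves, and Ccnd1 was the most abundant. Replicate 2 at 500 nM was the highest of the 8. Neurogenic progenitor genes summed to 2114 CPM (1909 to 2326) against 5900.5 CPM in that type, with the cell-cycle exit gene Btg2 at 721 CPM. Amacrine genes summed to 741 CPM against 4984 CPM, and ganglion cell genes to 293 CPM against 6517 CPM.

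Of types that the annotation does not name, bipolar genes summed to 477 CPM (405 to 568), led by Pcp2, a G-protein modulator, at 251 CPM, with Grm6, the receptor of ON bipolar cells, at 1 UMI. Müller glia genes summed to 552 CPM, of which the lipid carrier Apoe made 459 CPM, and Apoe was 349 CPM in primary progenitors. Microglia genes summed to 5.74 CPM with 4 of 7 at 0, and vessel genes to 2.62 CPM. Pigment epithelium genes summed to 47.0 CPM, led by Dct at 41.4 CPM. The part of these transcripts in the results below was not tested.

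To describe rod and cone character cell by cell, precursors with at least 1 UMI of Thrb or Rxrg and none of Nrl or Nr2e3 were called cone-marked, and those with the reverse pattern rod-marked. This gave 269 cone-marked cells (16.2%), 662 rod-marked cells (39.8%), 324 cells with both kinds of marker (19.5%) and 407 with neither (24.5%). Median UMIs were 2635 in cone-marked cells, 2469.5 in rod-marked cells, 2797 in cells with both and 2890 in cells with neither. Few cells of other types carried these marks: after each cell was thinned to 1500 UMIs, a Thrb or Rxrg UMI was found in 24.7% of precursors and in 1.03% of neurogenic progenitors, and a Nrl or Nr2e3 UMI in 49.3% and 2.93%. In amacrine cells, which are neither rods nor cones, the shares were 1.68% and 1.90%, and in ganglion cells, in which Rxrg is also known, 2.5% and 5.5%. Before thinning, median UMIs were 2642.5 in precursors and 4526.5 in neurogenic progenitors. Of the marked cells, 119 cone-marked and 164 rod-marked cells rested on 1 marker UMI.

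Cells with neither marker had the lowest levels of several light-response genes. Their Rcvrn was 36.7 CPM, against 303 in cone-marked, 115 in rod-marked and 213 CPM in doubly marked cells, and their Sag was 236 CPM against 834, 1251 and 1718 CPM. Pdc was 615 CPM in cells with neither marker and 3189 CPM in cells with both. Crx was nearly level over the classes, at 429 CPM in cone-marked, 469.8 in rod-marked, 500.2 in doubly marked and 429 CPM in unmarked cells. Abca4, a retinoid transporter gene, was highest in the unmarked cells, at 229.9 CPM against 64.3 in cone-marked, 148 in rod-marked and 84.6 CPM in doubly marked cells. The median depth of unmarked cells was above that of each other class.

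**Figure D2:**
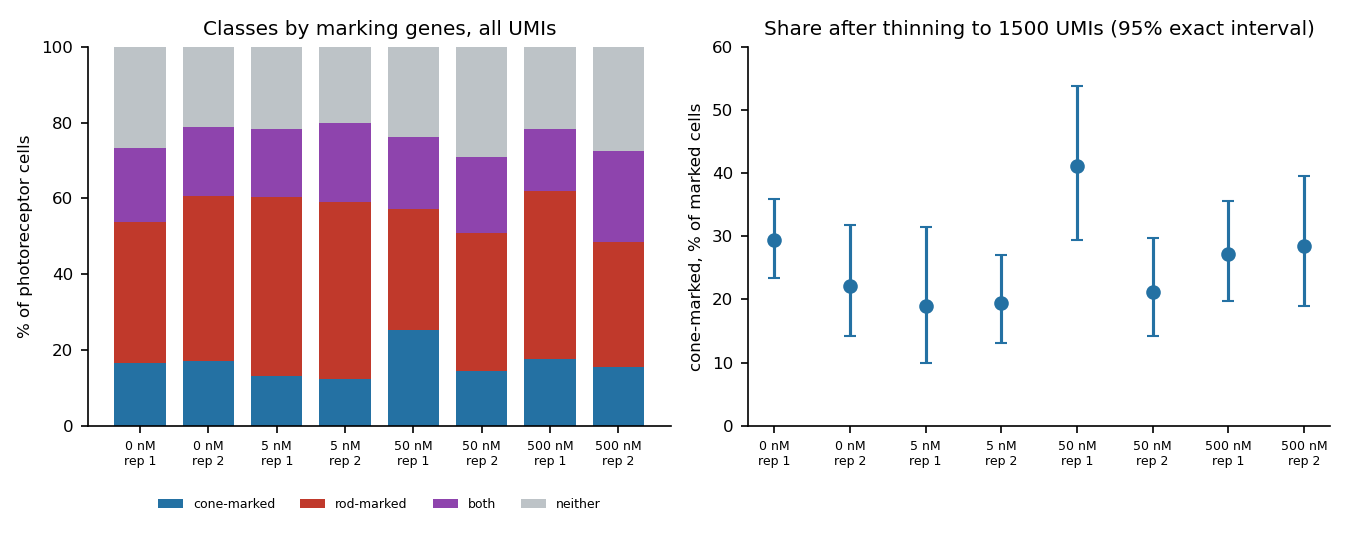
Left, percent of the precursors of each explant that were cone-marked, rod-marked, both or neither; right, cone-marked cells as a percent of cone- and rod-marked cells after thinning to 1500 UMIs, with exact 95% binomial intervals that cover counting error only. Replicate 1 at 50 nM stands highest at 41.2%, and the other 7 explants lie between 19.0% and 29.4%.

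Cone-marked and rod-marked cells of the same explant were then compared, with the explant as a block and the 4 marking genes left out of the test and of the library totals. In all, 477 of 3489 genes passed (13.7% of those tested, either direction), 247 higher in cone-marked cells (7.08%) and 230 lower (6.59%), by edgeR's quasi-likelihood test at an adjusted p of 0.05. The median log2 fold change of all genes tested was −0.01. These classes come from 2 markers of each kind in sparse counts, so each holds some cells of the other kind. The marks did not exclude each other: of precursors with a Thrb or Rxrg UMI, 324 also held a Nrl or Nr2e3 UMI and 269 did not. How many cells of each class were of the other kind was not tested. The pooled cells of an explant, not the cells, were the replicates (n = 8 pairs).

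The cone list followed the marks: 7 of its 8 tested genes rose in cone-marked cells and none fell (median log2 fold change 1.15). Gnat2 was 358, 497 and 682 CPM (lowest, median and highest explant) in cone-marked cells and 67.8, 151 and 166 CPM in rod-marked cells, so that the classes did not overlap, and its log2 fold change was 1.96 (SE 0.13, adjusted p = 2.71e-29, higher in 8 of 8 explants). Opn1sw was 291, 758 and 1879 CPM against 132, 289.9 and 394 CPM, with a log2 fold change of 1.41 (SE 0.12, adjusted p = 2.34e-19, higher in 8 of 8). The ranges of Opn1sw overlapped between classes although each explant had more in its cone-marked cells. Pde6c rose by 1.76, the potassium channel subunit gene Kcne2 by 1.68, Ccdc136 by 0.88, Cngb3 by 0.86 and Gnb3 by 0.52 on the log2 scale. The call of Kcne2 was lost after thinning. Gngt2, the most abundant cone gene, was 1931 CPM in cone-marked and 1694 CPM in rod-marked cells (log2 fold change 0.17, adjusted p = 0.115), and did not pass.

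Of 19 shared genes tested, 4 rose in cone-marked cells and 10 fell (median log2 fold change −0.30). Guca1a (chr17:47394558-47400584), which encodes the guanylate cyclase activating protein GCAP1 and whose promoter motif is shown above, was 25.3, 208 and 363 CPM in cone-marked cells and 0, 23.7 and 59.4 CPM in rod-marked cells. Its log2 fold change was 3.05 (SE 0.23, adjusted p = 7.83e-25), and it was higher in 8 of 8 explants. Rcvrn, which also senses calcium, was 63.3, 269 and 560.0 CPM against 34.7, 102 and 214 CPM (log2 fold change 1.44, SE 0.15, adjusted p = 2.18e-15). The phosphodiesterase chaperone gene Aipl1 rose by 1.13 and Tulp1 by 0.31 on the log2 scale, the latter a call lost after thinning and with 2 marker UMIs. These were the 4 that rose.

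Of the 10 genes that fell, the largest change was that of a tetraspanin gene of the disc rim. This gene, Rom1 (chr19:8927391-8929356), was 89.2, 218 and 376 CPM in cone-marked cells and 883, 934 and 1279.6 CPM in rod-marked cells, without overlap (log2 fold change −2.30, SE 0.12, adjusted p = 2.18e-38). Its partner Prph2 was 144 against 308 CPM in the mean (log2 fold change −1.03), again without overlap. Abca4 was 64.4 against 149 CPM (−1.33), the axoneme gene Rp1 283 against 565 CPM (−0.98), Sag 834 against 1253 CPM (−0.65) and Pdc 1939 against 2624 CPM (−0.49). Prom1, which encodes a protein of disc membranes, also fell, a call lost in most settings.

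The rod list moved both ways. Of its 4 tested genes Gnb1, the rod transducin beta subunit, was lower in cone-marked cells at 83.7 against 204 CPM (log2 fold change −1.28, SE 0.19, adjusted p = 7.47e-09). Gngt1, the rod gamma subunit, was instead higher there, at 418, 1097 and 1271 CPM against 314, 382 and 595 CPM (log2 fold change 1.27, SE 0.09, adjusted p = 5.22e-25, higher in 8 of 8 explants). Pde6g was 663 against 426 CPM (0.59, higher in 7 of 8), a call lost when 2 marker UMIs were asked for. In the P14 retinas, whose annotation separates the types, Gngt1 was 15946 CPM in rods and 7951 CPM in cones and Gnat2 was 7.99 CPM in rods and 1585 CPM in cones.

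Transcription factors of the photoreceptor fate were lower in the cone-marked cells where they differed, with 0 higher and 6 lower of 12 tested (median −0.30). Otx2 was 774, 1042 and 1254 CPM in cone-marked and 1461, 1676 and 1806 CPM in rod-marked cells, without overlap (log2 fold change −0.71, SE 0.08, adjusted p = 7.92e-14). Rorb, a nuclear receptor upstream of Nrl, was 708 against 1189 CPM (−0.78), Prdm1 234 against 351 CPM (−0.66) and Neurod1 1724 against 2077 CPM (−0.30). Neurod4 fell by 0.58 and Onecut2, a factor of early cone and horizontal cell fates, fell by 0.62 on the log2 scale. Crx did not pass, at 429 against 471 CPM (log2 fold change −0.13, SE 0.11, adjusted p = 0.474). The call of Prdm1 was lost after thinning, and that of Onecut2 with DESeq2, with 2 marker UMIs and without any 1 of 3 explants. Of 5 neurogenic progenitor markers tested, 0 rose and 3 fell in the same comparison (Hes6, Btg2 and Insm1; median −0.32; 1 fell with DESeq2, after thinning or with 2 marker UMIs), and Otx2, Prdm1, Neurod1 and Neurod4 are themselves expressed in neurogenic progenitors, as given above. The part of this in the result was not tested.

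Synaptic and metabolic genes also differed. Of 12 ribbon synapse genes tested, 4 rose in cone-marked cells and none fell (median 0.20), among them Slc17a7 at 217 against 105 CPM (1.01) and the ribbon syntaxin gene Stx3 (0.65). The calls of the other genes, Pclo and Syt1, were lost under several settings. Of 15 glycolysis genes, 0 rose and 7 fell (median −0.31), with Ldha at 1637 against 2533 CPM (−0.67, without overlap) and the pyruvate kinase gene Pkm at 837 against 1134 CPM (−0.46). Pgk1, Slc2a1, Tpi1, Aldoa and Bnip3 were the others. With DESeq2, which called 2.75% of all genes lower, 2 of the 15 passed as lower. Of 13 mitochondrial genes 0 rose and 2 fell (mt-Co1, and mt-Atp6, whose call was lost in most settings), of 15 cilium and outer segment genes 3 rose (Cdhr1, Rp1l1 and Tulp1; 0 after thinning and 1 with DESeq2) and 1 fell, and of 4 Notch pathway genes 0 rose and 2 fell (Notch1 by 0.82 and Hes6 by 0.59 on the log2 scale), of which DESeq2 called 0. None of 7 somatostatin pathway genes and none of 6 apoptosis genes passed in this edgeR test.

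The genes with the largest rises in cone-marked cells, beside Guca1a, were Syndig1l (a synapse-linked membrane protein gene) at 78.4 against 6.38 CPM (log2 fold change 3.31, SE 0.49, adjusted p = 1.92e-08), Rd3l at 161 against 20.7 CPM (2.99), the calcium-binding protein gene Cabp5 at 169 against 22.3 CPM (2.56) and Wscd2 at 71.2 against 13.6 CPM (2.48). Cabp5 is known as a gene of bipolar cells and Rd3l as a relative of the cyclase regulator Rd3. Beside Rom1, the largest falls were in Htra1 (a secreted protease gene, 18.2 against 119 CPM, −2.54), Insm2 (a zinc finger gene, 19.2 against 75.0 CPM, −2.15), Lmo1 (43.3 against 167 CPM, −1.96) and Trib1 (66.0 against 172 CPM, −1.60). The cell-cycle inhibitor gene Cdkn1c was 223 against 73.6 CPM (1.53). The TAATCC motif was present in 7.94% of the promoters of genes that passed as higher (15 of 189 with a promoter) and 8.67% of those that passed as lower (15 of 173), against 7.20% of the genes tested (199 of 2764).

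The same split was made in the 1142 photoreceptors of the 5 P0 retinas, which share no sample with the explants, as an addition made after seeing the data. There 111 cells were cone-marked, 538 rod-marked, 228 held both kinds of marker and 265 neither. In the test 645 of 6326 genes passed (10.2%), 389 higher (6.15%) and 256 lower (4.05%) in cone-marked cells. Of the 477 genes of the explants 470 were tested at P0, and 437 of them (93.0%) had the same direction, against 2338 of the 3460 genes tested in both (67.6%). Both passed for 240 genes, 50.3% of the explant list and 37.2% of the P0 list, of which 238 moved the same way.

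By gene, Guca1a was 95.4 against 0.703 CPM at P0 (log2 fold change 6.51, SE 0.60), Gnat2 380.2 against 14.3 CPM (4.72), Opn1sw 999.9 against 52.4 CPM (4.29) and Rcvrn 361 against 11.9 CPM (4.77). Rom1 was 58.9 against 812 CPM (−3.72), Otx2 404 against 961 CPM (−1.25) and Sag fell by 2.38 on the log2 scale. These P0 values lay further from 0 than those of the explants. Of 6 amacrine markers tested at P0, 4 rose in cone-marked cells and none fell (Tfap2b, Gad2, Pax6 and Tfap2a; median 1.93), against 0 higher and 1 lower of 3 in the explants. The neurogenic factor gene Neurog2 and Apoe were also higher there, and the part of these transcripts in the P0 values was not tested. P0 photoreceptors had more UMIs per cell, with retina medians from 4035 to 5198.5, and the difference in size between the libraries was not tested. The cone list had 11 of 12 genes higher and none lower (median 3.96). The rod list had 1 of 7 higher, Pde6g, and 5 lower (median −1.25). Gngt1 was 365 CPM in cone-marked and 424 CPM in rod-marked cells at P0 (log2 fold change −0.25, adjusted p = 0.494 by edgeR).

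**Figure D3:**
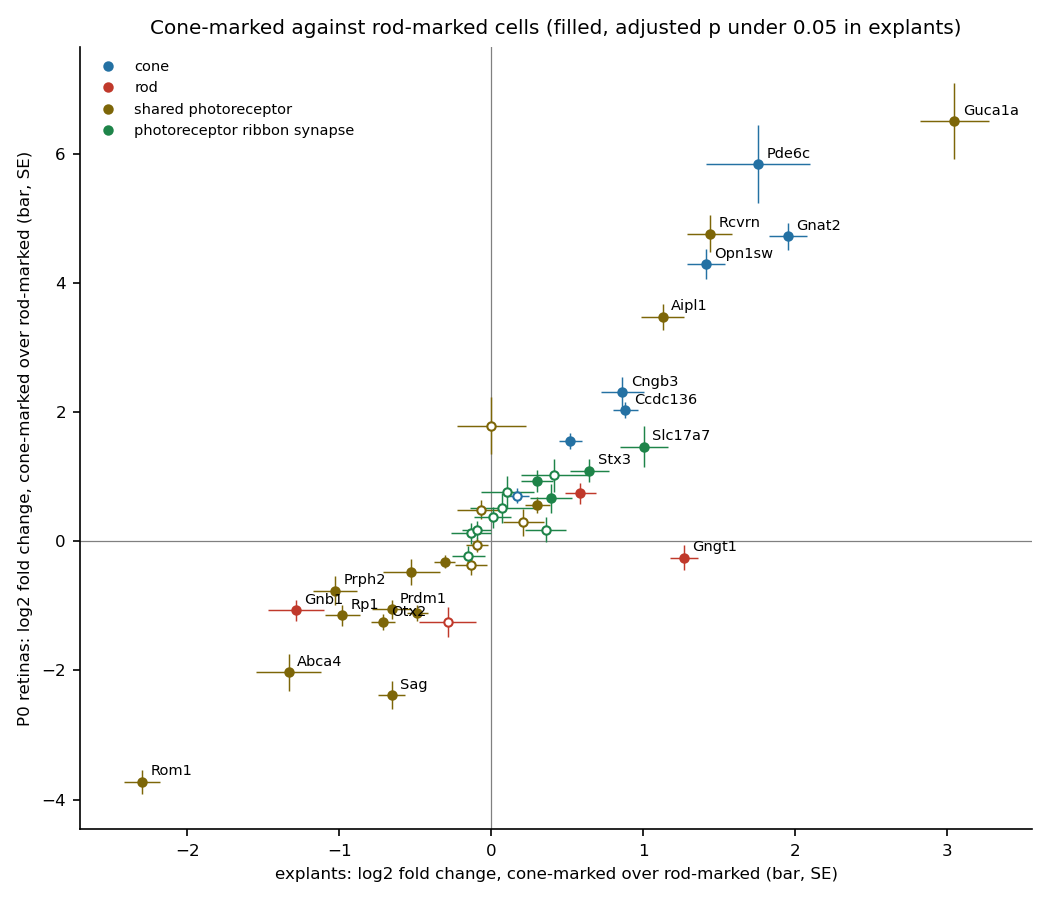
Log2 fold change between cone-marked and rod-marked photoreceptors in the 8 explants (horizontal) and in the 5 P0 retinas (vertical), each with its standard error, for genes of the cone, rod, shared and ribbon lists; filled points passed in the explants. Gngt1 is the labelled gene on opposite sides of 0, at 1.27 in the explants and −0.25 at P0.

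The course of the precursors over the agonist doses was examined in 3 contrasts, each dose against 0 nM, which share the 0 nM explants, and in a trend over log10 of the dose plus 1. With 2 explants a dose, 5 of 7440 genes passed at 5 nM (0.0672%) by edgeR, of which 1 rose (0.0134%) and 4 fell (0.0538%). At 50 nM 6 genes passed (0.0806%), 2 of them higher (0.0269%) and 4 lower (0.0538%). At 500 nM 7 genes passed (0.0941%), 3 of them higher (0.0403%) and 4 lower (0.0538%). The trend gave 2 of 7073 genes (0.0283%), 1 rising (0.0141%) and 1 falling (0.0141%). The counts at an unadjusted p under 0.05 were 431, 532, 421 and 398. DESeq2 gave 0 genes in each of the 4 tests, with 36, 98, 34 and 136 at an unadjusted p under 0.05. All dose calls below therefore hold for edgeR alone.

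None of the 6 precursor markers passed at any dose. Crx was 498 and 499 at 0 nM, 466 and 443 at 5 nM, 444 and 491 at 50 nM and 425 and 403 CPM at 500 nM. Both 500 nM explants were the lowest of the 8, but the log2 fold change at 500 nM was −0.25 (SE 0.11) with an adjusted p of 0.843. Otx2 was 1579 and 1673 at 0 nM, 1609 and 1525 at 5 nM, 1251 and 1395 at 50 nM and 1397 and 1240.2 CPM at 500 nM, so that the 4 explants of the upper doses lay below the 4 of the lower ones. Its log2 fold changes were −0.03, −0.25 and −0.28 (adjusted p at 500 nM 0.635), and its trend of −0.12 per log10 step had an adjusted p of 0.504. Neither gene passed at any dose or over the trend.

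Neurod1 was between 1859 and 2103 CPM in all explants. Thrb was 165 and 115 at 0 nM, 159.6 and 104 at 5 nM, 218 and 159 at 50 nM and 156 and 181 CPM at 500 nM, with no order by dose. Nrl was 305 and 309 at 0 nM, 285 and 331 at 5 nM, 226 and 335 at 50 nM and 298 and 233 CPM at 500 nM. Nr2e3 was 786 and 831 CPM without agonist, and its lowest value, 399.6 CPM, was in replicate 1 at 50 nM, the explant with the highest share of cone-marked cells, whose marking itself uses Nr2e3. Neither rod factor passed at any dose.

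The lists had few calls. Median log2 fold changes at 5, 50 and 500 nM were −0.08, −0.16 and −0.11 for the 6 precursor markers, 0.13, 0.07 and −0.05 for 9 rod genes, −0.29, −0.12 and −0.06 for 12 cone genes and −0.07, −0.10 and −0.11 for 24 shared genes. Over all genes tested the medians were 0.00, 0.01 and 0.00, so the cone list at 5 nM lay furthest from them among these, with 9 of its 12 genes negative. The 8 primary progenitor markers tested had medians of 0.34, 0.03 and 0.43. Of these lists, 1 rod, 1 cone and 1 shared gene fell at 5 nM, none passed at 50 nM, and 1 cone gene and 1 primary progenitor gene rose at 500 nM.

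The 3 at 5 nM, Guca1a, Opn1sw and Pde6g, act in the light response, and all 3 were higher in cone-marked than in rod-marked cells. The explants at 5 nM had the lowest shares of cone-marked cells among marked cells after thinning, 19.0% and 19.4%. The part of this share in the 3 calls was not tested. Guca1a was 101 and 81.4 at 0 nM, 40.7 and 18.2 at 5 nM, 97.3 and 98.5 at 50 nM and 67.3 and 41.7 CPM at 500 nM (log2 fold change at 5 nM −1.88, SE 0.28, adjusted p = 4.63e-05). Opn1sw was 494 and 666 at 0 nM, 294 and 262 at 5 nM, 413 and 381 at 50 nM and 558 and 240.5 CPM at 500 nM (−1.02 at 5 nM, adjusted p = 0.000154). In both, the 5 nM explants lay below the 0 nM and 50 nM explants, and at 500 nM neither passed. Without replicate 2 at 5 nM both calls were lost, as was that of Opn1sw in Xist-positive cells alone. Pde6g was 612 and 384 at 0 nM and 253 and 366 CPM with 5 nM (−0.66, adjusted p = 0.0481), a call lost without marked doublets, without replicate 1 at 0 nM and without replicate 1 at 5 nM. The mitochondrial protein gene Chchd10 fell by 0.77 (adjusted p = 0.0481) and the phosphatase inhibitor gene Ppp1r14b rose by 0.63 (adjusted p = 0.0138) on the log2 scale. Both of these calls were lost in Xist-positive cells alone, without replicate 1 at 0 nM and without replicate 2 at 5 nM.

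At 50 nM 4 genes fell and 2 rose. The histone gene Hist1h2bc (chr13:23684199-23692908) was 72.2 and 100.2 at 0 nM, 68.8 and 65.8 at 5 nM, 36.8 and 30.2 at 50 nM and 43.4 and 29.8 CPM at 500 nM. Its log2 fold change was −1.29 at 50 nM (adjusted p = 0.0119) and −1.10 at 500 nM (adjusted p = 0.0347), and its trend was −0.49 per log10 step (adjusted p = 0.00941). All 4 explants of the upper doses lay below the 4 others. The calls at 500 nM and of the trend were lost without replicate 2 at 0 nM and without replicate 2 at 500 nM, and that at 500 nM also without marked doublets. Hist1h1c and H1f0, which encode linker histones, fell by 0.61 and 0.60 at 50 nM, and H1f0 was 773 and 596 CPM at 500 nM against 892 and 739 CPM without agonist. The arrestin-domain gene Arrdc3 fell by 1.19, while the nuclear factor gene Nfib rose by 0.74 (adjusted p = 0.0153) and the ribosomal protein gene Rpl28 by 0.42 (adjusted p = 0.0319). In Xist-positive cells alone none of these 6 calls held at 50 nM, and each was lost without at least 1 of the explants of the contrast, those of Nfib and Rpl28 without any 1 of the 4.

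At 500 nM, the cyclin D1 gene Ccnd1 was 88.0 and 96.1 at 0 nM, 93.9 and 158 at 5 nM, 81.5 and 105 at 50 nM and 114 and 296 CPM at 500 nM (log2 fold change 1.12, adjusted p = 0.00322). The highest value was that of replicate 2 at 500 nM, which also had the highest sum of primary progenitor genes, 847 CPM, and 9 of the 26 marked doublets among precursors. Without that explant the log2 fold change was 0.34 and did not pass. The call was also lost without replicate 1 at 0 nM, without marked doublets and in Xist-positive cells alone.

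Gngt2 was 1306 and 1520.4 at 0 nM, 2331 and 1216 at 5 nM, 1249 and 702 at 50 nM and 2302 and 2019 CPM at 500 nM (log2 fold change 0.64, SE 0.14, adjusted p = 0.0204). Its 3 highest values were in the 3 explants with almost only Xist-positive cells, and in Xist-positive cells alone the log2 fold change was 0.21 and did not pass. The call was also lost without replicate 1 at 0 nM or replicate 1 at 500 nM. Xist itself rose by 1.06 (adjusted p = 1.45e-09), and Uty, Ddx3y and Eif2s3y, on the Y chromosome, fell by 3.87, 3.73 and 3.62 on the log2 scale. Sex and dose cannot be told apart at 500 nM when all cells are taken.

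**Figure D4:**
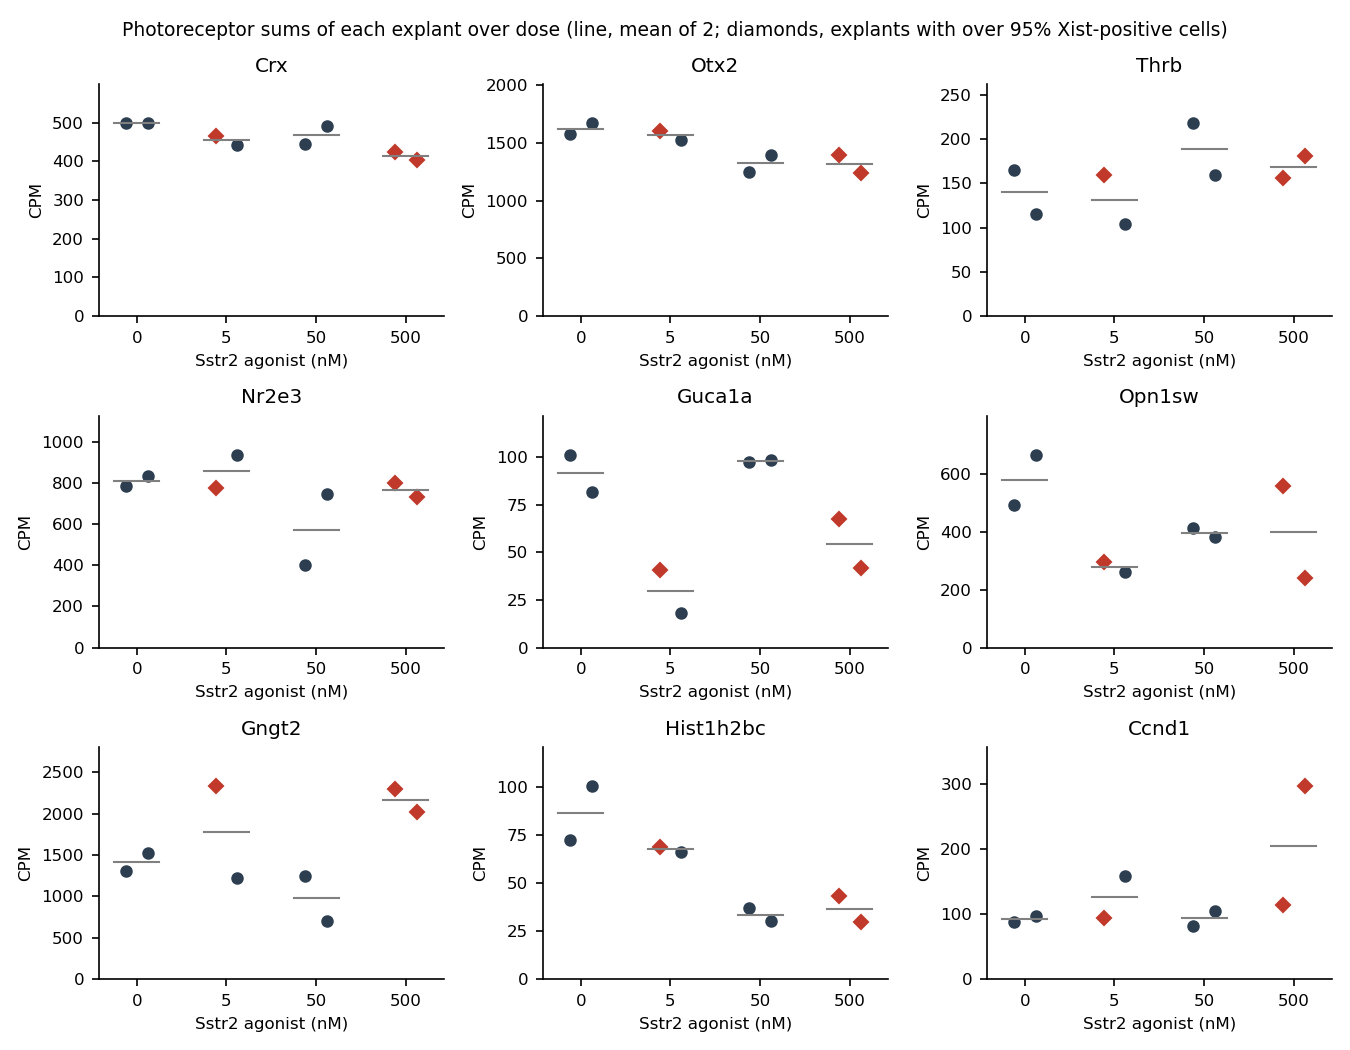
Level of 9 genes in the summed precursors of each explant, in CPM, by agonist dose; lines are means of 2 explants, diamonds are explants with over 95% Xist-positive cells (5 nM replicate 1 and both at 500 nM) and circles the others. Hist1h2bc lies lower at 50 and 500 nM (29.8 to 43.4 CPM) than at 0 and 5 nM, Gngt2 is highest in the diamonds, and Ccnd1 is set apart by 1 explant at 296 CPM.

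No course of the balance of cone and rod marks over dose was detected with 2 explants a dose, and the size that could be detected was not tested. Of the marked cells after thinning, cone-marked cells were 29.4% of 218 and 22.1% of 95 at 0 nM, 19.0% of 58 and 19.4% of 134 at 5 nM, 41.2% of 68 and 21.2% of 118 at 50 nM, and 27.1% of 129 and 28.4% of 81 at 500 nM. Dose means were 25.7% ± 5.13, 19.2% ± 0.309, 31.2% ± 14.1 and 27.8% ± 0.893 (SD, n = 2). Over the 8 explants, Pearson's r with log10 of the dose plus 1 was 0.30 (exact permutation p = 0.488, adjusted 0.672) and Spearman's rho 0.20 (exact permutation p = 0.672, adjusted 0.672; 2 measures, two-sided, 2520 arrangements). Without the 2 explants farthest from the median dose, r was 0.31 and rho 0. The exact 95% interval of the highest share, 29.4% to 53.8%, covers counting error only.

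The explant precursors were last set beside the 1142 photoreceptors of the P0 retinas, the age to which the cultures were timed. Each kind of sample was its own library, and strain mix, culture, library and the filter on cells cannot be told apart as sources of a difference. The agonist is absent when only the 2 explants at 0 nM are taken. Then 2908 of 9807 genes passed by edgeR, 1348 higher and 1560 lower in the explants. The Sstr2 genotype varied among the P0 retinas, and its part was not tested. The filter is visible in the tables: the explant cells hold 1001 to 2499 genes each and the P0 cells 1013 to 7324. The lists and most named genes are therefore given also with the 815 P0 cells that lie in the explant range, an alternative added after seeing the data. With all cells 3785 of 7879 genes passed (48%), 1844 higher (23.4%) and 1941 lower (24.6%) in the explants by edgeR, with a median log2 fold change of 0.01. In the same gene range 2411 of 7357 genes passed (32.8%), 1116 higher (15.2%) and 1295 lower (17.6%). A call in a list is to be read against these shares. Markers of other neurons moved as well: 3 of 3 ganglion cell markers tested rose (Stmn2, Nefm and Gap43; 2 of 2 in the same range), and of the bipolar markers 3 of 6 rose and 1 fell (3 and 1 of 4 in the same range). Of 5 amacrine markers 0 rose and 3 fell (Gad2, Pax6 and Meis2), while 2 rose and 2 fell of 4 in the same range. Of 18 immediate early and stress genes 8 rose and 5 fell (12 and 4 in the same range). The part of these transcripts in the results below was not tested.

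More cone, shared and synaptic genes rose than fell in the explants with either set of P0 cells. Of 14 cone genes 9 rose and 2 fell (median 0.70), and 6 rose and 2 fell of 13 in the same gene range (median 0.34). Gnat2 was 226 CPM in the mean of the explants and 84.9 CPM at P0, without overlap (log2 fold change 1.32, and 1.03 in the same range). Cngb3 was 210.4 against 70.0 CPM (1.47 and 1.19), and Kcne2 37.5 against 3.51 CPM (3.29 and 3.08). Pde6h went the other way, with 5 UMIs or 1.04 CPM in the explants against 585 UMIs or 78.4 CPM at P0 (−6.20, adjusted p = 7.24e-12, and −6.51 in the same range). Gngt2, the most abundant cone gene, did not pass with all P0 cells (−0.38, adjusted p = 0.104 by edgeR). In the same range it passed as lower in the explants (−0.88, adjusted p = 4.04e-05 by edgeR). Opn1sw rose with all P0 cells (0.79) and did not pass in the same range (0.34, adjusted p = 0.142 by edgeR). Of 22 shared genes 16 rose and 3 fell (median 0.73), or 12 and 7 in the same range (0.28), and of 15 ribbon genes 13 rose and 0 fell (0.73), or 10 and 2 (0.40). Slc17a7 was 120.4 against 30.4 CPM (1.92 and 1.50) and Sag 1027 against 434 CPM (1.13 and 0.44). Guca1a was 68.3 against 18.9 CPM (1.78 and 1.88), while Rbp3, the retinoid carrier of the space around photoreceptors, was lower at 145 against 268 CPM (−1.03 and −1.46).

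More rod genes fell than rose. Of 10 tested, 2 rose and 5 fell (median −0.26), and in the same range 0 rose and 7 fell (median −0.84). The 2 that rose with all P0 cells were Gngt1 (0.32) and Pde6g (0.51), whose values in the same range were −0.33 and −0.10 and did not pass. Nrl was 290.1 CPM in the explants and 362 CPM at P0 (−0.41, adjusted p = 0.00053, and −1.03 in the same range), and Pde6b 12.6 against 37.8 CPM (−1.66 and −2.22). The rod channel gene Cngb1 fell by 1.17, and by 1.71 in the same range. Nr2e3 was 751 against 591 CPM, which did not pass with all P0 cells (0.24, adjusted p = 0.057) and passed as lower in the explants in the same range (−0.34, adjusted p = 0.00747). Its direction thus turned with the choice of P0 cells. With only the 2 explants at 0 nM, Nr2e3 passed as higher in the explants (0.36, adjusted p = 0.00775) and Nrl did not pass (−0.33, adjusted p = 0.0935).

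Among the precursor markers Crx was 404, 455 and 499 CPM in the explants (lowest, median and highest) and 237, 252 and 283 CPM in the P0 retinas (log2 fold change 0.71, adjusted p = 3.34e-10, and 0.29 in the same range). Otx2 was 1459 against 807 CPM (0.74 and 0.33) and Rcvrn 144 against 67.2 CPM (0.98 and 0.61). Thrb was 157 against 92.5 CPM (0.63), and 0.33 in the same range, where it did not pass (adjusted p = 0.0605). Neurod1 was lower, at 1986 against 2385 CPM (−0.38 and −0.86). Prdm1 did not pass with all P0 cells (−0.06, adjusted p = 0.604) and passed as lower in the explants in the same range (−0.50, adjusted p = 3.32e-05).

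The direction of progenitor genes turned with the choice of P0 cells. With all of them, 0 of 10 primary progenitor genes rose and 10 fell (median −2.34) and 1 of 22 cell-cycle genes rose and 19 fell (median −2.42). In the same gene range, 5 of 7 progenitor genes rose and 0 fell (median 0.84), and 4 of 9 cell-cycle genes rose and 1 fell (median 0.26). With all P0 cells thinned to 1500 UMIs as the explant cells were, 0 of 8 progenitor genes rose and 7 fell (median −1.27), and 0 of 10 cell-cycle genes rose and 6 fell (median −1.23), where 15.6% of all genes fell. Ccnd1 was 129 against 1056 CPM (−3.16, and 0.84 in the same range), the DNA topoisomerase gene Top2a 32.2 against 246 CPM (−3.19, and 1.42) and the Notch target Hes5 116 against 279 CPM (−1.35, and 1.34). All 3 turned direction. The outer segment gene Rom1 turned as well (0.20, and −0.41), as did Tulp1 (0.28, and −0.24) and Snap25 (0.30, and −0.18). Of 105 genes of the lists that passed with both sets of P0 cells, 17 turned.

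**Figure D5:**
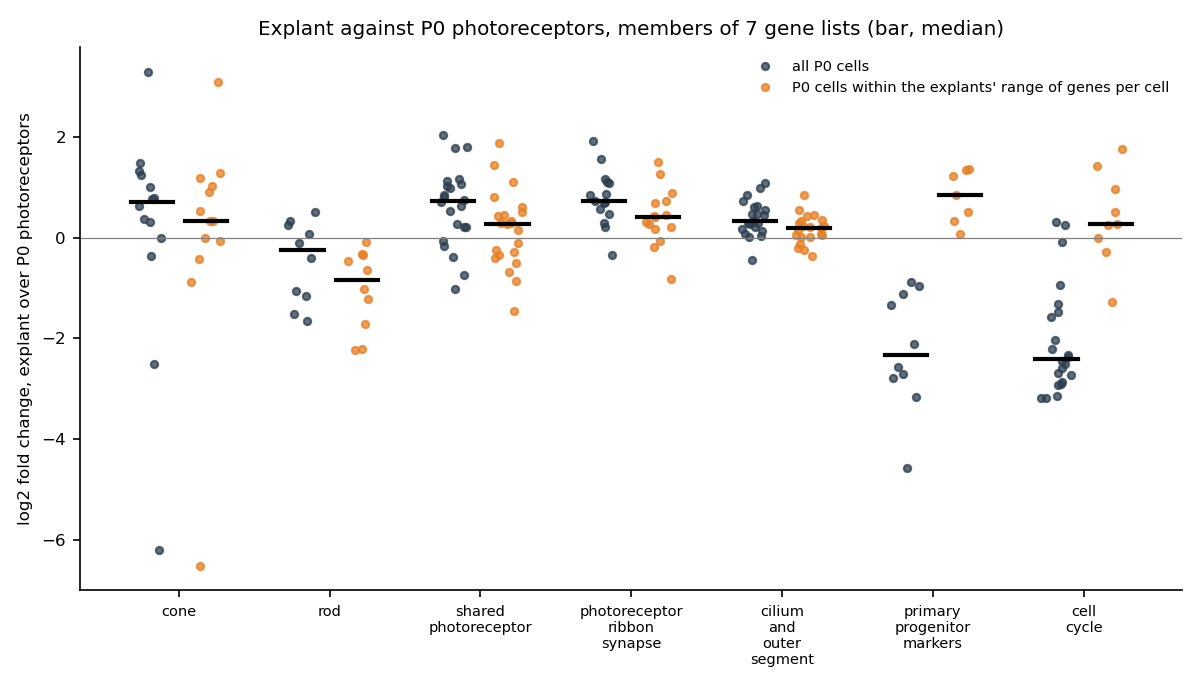
Log2 fold change between explant precursors and P0 photoreceptors for the tested genes of 7 lists, with all P0 cells and with P0 cells in the gene range of the explant cells; each point is a gene and each bar a list's median. The cone, shared and ribbon medians stay above 0 (0.70 and 0.34 for cone genes), the rod median stays below it, and the primary progenitor median moves from −2.34 to 0.84.

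The largest rises in the explants were in genes that photoreceptors are not known for. Cryge, a lens crystallin gene, had 241 UMIs in explant precursors and none at P0, at least 126-fold higher against a floor of 3 counts over the whole P0 group, and Crybb1 had 84 UMIs and none, at least 44.0-fold higher. Cryaa had 169 UMIs against 1, Cryba1 115 against 1 and the unnamed gene Gm35082 185 against 1. The 4 crystallin genes summed to a median of 120.5 CPM in precursors (95.4 to 151 over the explants). In the same explants the sum was 49.5 to 93.0 CPM in neurogenic progenitors and 56.8 to 103 CPM in amacrine cells. It ran from 0 to 207 CPM in ganglion cells and from 47.1 to 6017 CPM in primary progenitors. The crystallin transcripts were thus found in each of these types, and where they came from was not tested. After Pde6h, the largest falls were in Gm14964 (1.10 against 25.7 CPM, −4.89), the replication histone genes Hist1h2ag (−4.79) and Hist1h2ae (4.97 against 87.4 CPM, −4.32) and the Notch target Hes1 (8.37 against 195 CPM, −4.58), which was not tested in the same gene range.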

How the data were processed

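The authors ran Cell Ranger, assigned cells to samples by their barcodes and annotated them with Seurat; the submitters' processing notes name Cell Ranger 3.1.0, Seurat 3 and the build mm10. The deposited values used here are raw UMI counts per gene and cell, with 18823 genes in the explant table and 17851 at P0. The deposited tables hold filtered cells only. Barcodes were shared by chance or otherwise between libraries in 9 (explant and P0), 4 (explant and P14) and 7 (P0 and P14) cases. Scrublet in scanpy 1.11.5 marked 115 explant cells as doublets, 26 of them precursors, which were kept and left out in an alternative.

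Counts were summed over the annotated photoreceptors of each sample and tested with edgeR 4.0.16 (TMM scaling, filterByExpr, quasi-likelihood test, Benjamini-Hochberg adjusted p under 0.05 over all genes tested) in R 4.3.3. DESeq2 1.42.0, other size factors, no filter on low counts, thinning, other marking rules and leaving out each sample were tried. All 4 doses entered each dose fit and shared 1 estimate of spread. Genes named are the 6 markers, list members that passed, and in each comparison the 5 largest rises and 5 largest falls with at least 50 UMIs, or all where few passed. Single shares were given exact binomial intervals. Members and lists were chosen with earlier results of these data known. The tests were tried on simulated counts first.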

Additional observations from a re-analysis of the deposited data

Results flagged for a closer look

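In 4 of 27 sets of 8 explant values that were examined, 1 explant lay further from its nearest neighbour, relative to the whole range, than 95% of samples of this size would; chance alone does so in about 1 set of 20. The share of cone-marked cells among marked cells was 41.2% in replicate 1 at 50 nM, far above the other 7 explants. Opn1sw, the short-wavelength opsin gene, was 1878 CPM in the cone-marked cells of replicate 2 at 0 nM, with all genes in the library total. Gngt1, the rod transducin gamma subunit gene, was 418 CPM in the cone-marked cells of replicate 2 at 5 nM, far below the other 7. Gnb1, the rod transducin beta subunit gene, was 189 CPM in the cone-marked cells of replicate 2 at 500 nM, far above them.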

How the results depend on the processing

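The counts of dose genes were small and moved with most settings. At 5, 50 and 500 nM and in the trend, where 5, 6, 7 and 2 genes passed by edgeR, DESeq2 gave 0, 0, 0 and 0, no filter on low counts gave 9, 18, 12 and 15, and Xist-positive cells alone gave 2, 1, 2 and 1. DESeq2 size factors gave 8, 8, 7 and 2. Leaving out each explant gave 4 to 8 genes at 5 nM, 1 to 27 at 50 nM, 4 to 22 at 500 nM and 0 to 16 in the trend. The cause was not tested. No paired analysis was possible because the sample barcodes, the numbers the cell table gives, are shared by no doses, and replicates 1 and 2 are only names. Cone- and rod-marked cells came from the same explants, and without the replicate block, a fit whose low-count filter kept 2416 genes in place of 3489, 386 passed in place of 477. DESeq2 gave 233 there and thinned cells 206 of 1970 genes tested; without a filter on low counts, 467 passed, 158 higher and 309 lower. Leaving out each explant gave 344 to 452. Between explants and P0 retinas, thinned cells gave 1616 genes and P0 cells in the explant gene range 2411 (1116 higher and 1295 lower), against 3785, with 3493 to 3869 when each sample was left out. The thinned fits tested fewer genes from fewer counts. Spearman's rho of the cone-marked share with dose was 0 without the 2 explants at 500 nM, and 0.055 to 0.59 with 1 explant left out; Pearson's r was 0.24 to 0.46. A set of 23 gene results at 500 nM and between cone- and rod-marked cells was followed, some of which did not pass to begin with. Of 317 alternatives, 294 stayed on their side of the threshold, 23 lost the call and none turned in direction. These losses fell on the 7 genes called at 500 nM, and on Prdm1 between cone- and rod-marked cells after thinning. The set did not hold mt-Atp6, Prom1, Pclo or Syt1, whose calls between cone- and rod-marked cells were lost in most settings. Between explants and P0, 17 of 105 list genes that passed with both sets of P0 cells turned. The P0 retinas in place of explants and the matched gene range were added after seeing the data. With 2 explants a dose, small changes of low genes may have gone undetected, and the size of change that could be detected was not tested.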

Other observations

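Lens crystallin transcripts (Cryaa, Cryba1, Crybb1 and Cryge summed) were not even over the cell types of the explant library. In primary progenitors their median was 77.0 CPM over the 8 explants, but replicate 2 at 500 nM had 6017 CPM. The precursors of that explant had 95.4 CPM, the lowest of the 8, and its neurogenic progenitors 93.0 CPM, the highest of the 8. In ganglion cells the sum ran from 0 to 207 CPM.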
